A study of Mus musculus with 20 samples.

Results

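The Myc family and its Max network were followed in mouse brain glial progenitor cells through 27 probe sets for 10 genes, out of 45037 probe sets tested. The members were chosen by gene name, not by measured values: Mycn, Myc, Mycl, Max, Mxd1, Mxd3, Mxd4, Mxi1, Mnt and Mga, with every probe set whose annotation names that gene alone. Mga had 5 such probe sets, Mxd4 had 4, Mycn, Mycl, Mxd1 and Mxd3 had 3 each, Mxi1 and Mnt had 2 each, and Myc and Max had 1 each. RNA from 4 groups of cells was hybridised to 5 single-colour expression arrays per group. The groups were embryonic progenitors that had been transduced (a genetic modification, per the labels), embryonic control progenitors, postnatal progenitors that had been transformed, and postnatal control progenitors. The labels used here call the source brain and give each array a cell line name of its own, numbered within its group. They name neither the introduced sequence nor the transforming agent, nor the strain or exact age, and they do not say whether arrays of a group came from separate cultures, so p-values measure only the spread between arrays, which may be technical.

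Myc, Mycn and Mycl are basic helix-loop-helix leucine zipper transcription factors that bind DNA only as dimers with Max, mostly at the E-box CACGTG, where they recruit acetyltransferase complexes and raise transcription of genes for growth, ribosome synthesis and cell division. The Mxd proteins (Mxd1, Mxd3, Mxd4 and Mxi1) and Mnt compete for Max and bring Sin3 and histone deacetylases to the same sites, and Mga joins Max to a T-box domain and to a noncanonical Polycomb complex. In the developing brain Mycn is the family member most closely tied to the expansion of neural progenitors.

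Each value is an array's signal on a linear intensity scale. A probe set was taken as above background on an array when its signal passed the 95th percentile of 27 probe sets for bacterial transcripts on that array, which lay between 107 and 221. Changes were tested with limma on log2(signal + 16) over all 20 arrays, and a probe set was called when its p-value, adjusted by Benjamini-Hochberg over all 45037, was under 0.05 and its change was at least 2-fold. All fold changes here are on that log2 scale, which understates changes of dim probe sets. Between 61.3% and 73.2% of probe sets were above background on an array, and arrays of a group correlated at r between 0.939 and 0.960. Olig2, Sox2 and the other progenitor genes measured (6 of 6) were above background on every array of all groups. Their summed signal was 148575 to 159995 in embryonic transduced and 239101 to 267702 in embryonic control arrays. It was 216660 to 227583 in postnatal transformed and 269052 to 323062 in postnatal control arrays. Of the 6, 2 were called lower and 0 higher in embryonic cells, against 5.67% and 8.46% of all genes. In postnatal cells 1 was called higher, against 9.44%, and 0 without postnatal control arrays 4 and 5. Postnatal control arrays 4 and 5 stood apart: the mean log2 signal of 11 cell cycle genes was 12.55 and 12.41 on them, against 14.88, 14.94 and 14.93 on postnatal control arrays 1 to 3. The same mean was 12.38 to 12.64 in postnatal transformed, 14.83 to 15.00 in embryonic transduced and 15.08 to 15.20 in embryonic control arrays, so values without arrays 4 and 5 are given beside the results whose call, direction or size they change.

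The 3 promoters shown are those in which the searched motifs were found, and they belong to Mycn and to 2 antagonists of Myc, Mxd4 and Mnt. They are the 250 bases before the annotated start, 5′ to 3′ on the gene's strand, from RefSeq on GRCm38.p6. The table of promoters used here gave 11 for 9 of the 10 genes, and that of Myc was not analysed here. Capitals mark the E-box CACGTG, or in Mycn the E2F sites searched for (TTTCCCGC, TTTCGCGC, TTTGCCGC and TTTGGCGC on either strand, with overlapping matches counted).
Mycn, chr12:12941837-12942086, minus strand: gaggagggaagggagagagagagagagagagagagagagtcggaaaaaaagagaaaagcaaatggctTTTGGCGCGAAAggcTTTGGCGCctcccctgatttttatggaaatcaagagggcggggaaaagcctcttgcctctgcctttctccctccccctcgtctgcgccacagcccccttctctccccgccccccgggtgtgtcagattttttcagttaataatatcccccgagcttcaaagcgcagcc
Mxd4, chr5:34187711-34187960, minus strand: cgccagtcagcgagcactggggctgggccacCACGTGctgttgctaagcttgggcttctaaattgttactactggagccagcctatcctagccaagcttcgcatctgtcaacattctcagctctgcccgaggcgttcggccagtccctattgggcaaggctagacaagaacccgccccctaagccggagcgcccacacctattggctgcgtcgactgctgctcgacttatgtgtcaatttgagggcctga
Mnt, chr11:74830674-74830923, plus strand: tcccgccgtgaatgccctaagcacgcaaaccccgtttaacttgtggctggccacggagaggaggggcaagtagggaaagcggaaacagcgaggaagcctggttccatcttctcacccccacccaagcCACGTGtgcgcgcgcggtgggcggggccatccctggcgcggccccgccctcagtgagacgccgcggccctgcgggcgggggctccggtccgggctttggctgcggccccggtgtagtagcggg
In Mycn the 3 E2F matches began 183, 179 and 168 bases before the start, the first of them overlapping the next, and 1.86% of 32851 RefSeq promoters held such a match. The E-box began 219 bases before the start in Mxd4 and 123 bases before it in Mnt, and 6.02% of the 32851 promoters held one. A match is a description of these letters and not of binding.

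Mycn was measured by 3 probe sets that gave different sizes of change. Probe set 1425923_at was 231-fold brighter in transduced than control embryonic cells and 249-fold brighter in transformed than control postnatal cells. The same folds were 1.93 and 1.49 for 1417155_at, and 2.40 and 1.53 for 1425922_a_at. The annotation ties 1425923_at and 1425922_a_at to the same source sequence and 1417155_at to another, and the position of each along the transcript is not given in the sources used here.

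With probe set 1425923_at, Mycn signals were 93443, 108760, 110210, 121943 and 116234 on the embryonic transduced arrays, against 551, 756, 366, 156 and 817 on the embryonic control arrays. They were 122763, 119285, 119549, 110307 and 114248 on the postnatal transformed arrays, against 520.2, 559.6, 314, 373 and 564 on the postnatal control arrays. The modified and control arrays were separated by a wide gap at both ages, and embryonic control array 4 was the lowest of the 20. The log2 change was 7.85 ± 0.28 in embryonic cells (adjusted p = 6.07e-16, limma) and 7.96 ± 0.28 in postnatal cells (adjusted p = 9.49e-16, limma), ranking it 5 and 7 of 45037 probe sets by size of rise. The control signal was above background on 4 of 5 embryonic control arrays and 5 of 5 postnatal control arrays, so the embryonic fold is not exact. The responses at the 2 ages differed by 0.11 ± 0.39 (postnatal minus embryonic, adjusted p = 0.879, limma). By brightness the probe set ranked 108 to 136 on embryonic transduced and 14 to 24 on postnatal transformed arrays. Whether signals that bright still scale with the amount of RNA was not tested. Between ages, the probe set differed by 0.09 ± 0.28 in modified cells and by -0.01 ± 0.28 in controls, neither called.

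With probe set 1417155_at, Mycn signals were 2777, 2621, 2534, 2391 and 2526 on the embryonic transduced arrays, against 1494, 1318, 1329, 1342 and 1152 on the embryonic control arrays. Every transduced array was above every control array, yet the log2 change of 0.95 ± 0.23 (adjusted p = 0.00249, limma) fell short of 2-fold. The postnatal transformed arrays read 2140.3, 2359.9, 2499, 2469 and 2138, against 1920.1, 2805, 2068, 1179 and 669 on the postnatal control arrays. Postnatal groups overlapped, with control array 2 the highest and control arrays 4 and 5 the lowest. The change of 0.58 ± 0.23 did not pass (adjusted p = 0.0582, limma) and was 0.05 without control arrays 4 and 5, when the difference between the 2 ages' responses became -0.90 ± 0.15 (adjusted p = 4.30e-05, limma), against -0.37 ± 0.33 with them.

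With probe set 1425922_a_at, Mycn signals were 609, 633, 773, 819 and 756 on the embryonic transduced arrays, against 403, 462, 306, 404 and 80.6 on the embryonic control arrays. All transduced arrays were above all controls, and control array 5 was below background. The rise of 1.26 ± 0.36 was called (adjusted p = 0.0085, limma), but without that control array it was 0.85, short of 2-fold. Postnatal transformed arrays read 603, 631, 415, 670.1 and 609.6, against 514, 666, 372, 187 and 291 on the postnatal control arrays, and these groups overlapped (log2 change 0.62 ± 0.36, adjusted p = 0.212, limma, and 0.19 without control arrays 4 and 5). The responses of the 2 ages differed by -0.64 ± 0.51 (adjusted p = 0.382, limma), and by -1.07 without them (adjusted p = 0.104, limma).

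**Figure D1:**
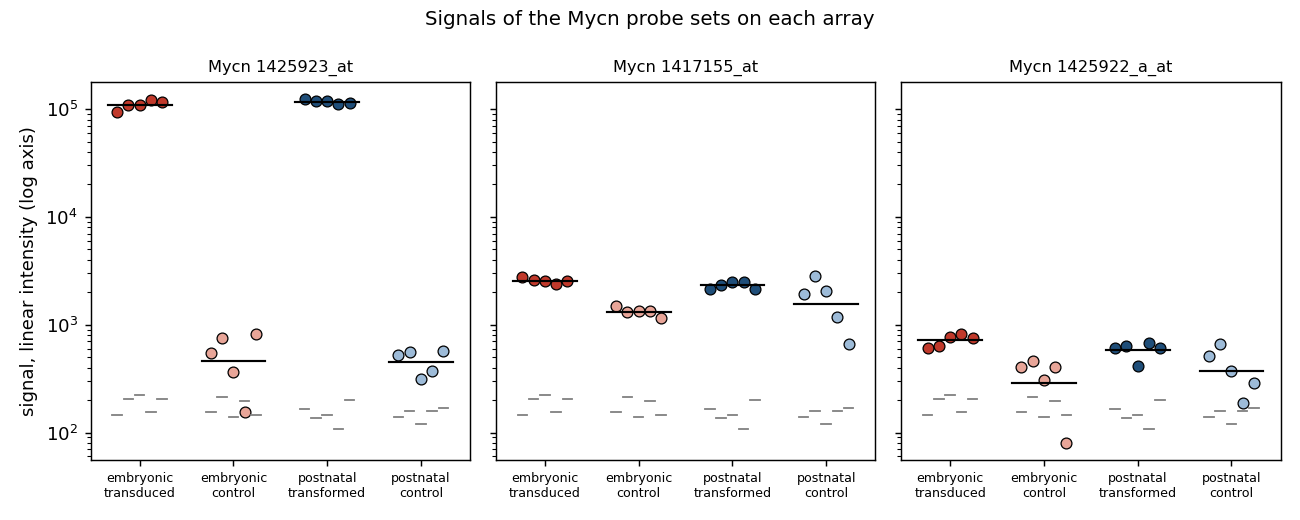
Signal of the 3 Mycn probe sets on each of the 20 arrays (linear intensity on a log axis), by group, with the background of each array as a grey dash and the mean on the log2 scale as a black line. Probe set 1425923_at lies at 93443 or higher on all modified arrays and at 817 or lower on all controls, and with the other probe sets the postnatal groups overlap.

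The difference between probe sets was tested within arrays, as the log2 difference between 2 probe sets on the same array. In embryonic cells 1425923_at minus 1417155_at averaged 5.41 ± 0.22 in transduced and -1.50 ± 0.98 in control arrays (SD, n = 5 each), a difference of 6.91. 1425923_at minus 1425922_a_at moved by 6.59, while 1417155_at minus 1425922_a_at moved by only -0.31. In postnatal cells the same differences were 7.38, 7.34 and -0.04. An exact two-sided permutation test of 5 against 5 arrays gave p = 0.00794 for each of the 4 comparisons that involve 1425923_at, the smallest it can give, and adjusted p = 0.0119 over the 6 comparisons. For 1417155_at against 1425922_a_at it gave adjusted p = 0.752 in embryonic and 0.825 in postnatal cells. The 3′ to 5′ signal ratio of the control transcripts, a measure of RNA integrity, averaged -0.30 in embryonic transduced, -0.38 in embryonic control, -0.55 in postnatal transformed and -0.46 in postnatal control arrays for Gapdh on the log2 scale. For Actb it was 0.42, 0.32, 0.28 and 0.25 in the same order, and its part in the Mycn differences was not tested.

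Genes that lie near Mycn on mouse chromosome 12 were read beside it. In the RefSeq order Ddx1 follows Mycn directly, then Nbas, Lratd1 and Trib2. On the other side Cyria lies next to Mycn, then Rad51ap2, Vsnl1 and Smc6. Under these symbols the genes of that side were not read here, and neither was Lratd1. Ddx1, which encodes an RNA helicase and is known for co-amplification with MYCN in human neuroblastoma, gave log2 changes of -0.14 ± 0.05 in embryonic and -0.45 ± 0.05 in postnatal cells. Nbas gave 0.17 ± 0.08 and -0.06 ± 0.08, and the pseudokinase gene Trib2 gave -0.87 ± 0.12 and -0.09 ± 0.12 (-1.04 ± 0.12 and -0.05 ± 0.12 with a second bright probe set). That second probe set of Trib2 was called lower in embryonic cells (adjusted p = 2.40e-07, limma), and without postnatal control arrays 4 and 5 the first gave -0.28 ± 0.11 in postnatal cells. With the brightest probe set of each, 0 of the 4 listed genes measured were called in embryonic cells and 1 in postnatal cells, the phosphatidate phosphatase gene Lpin1 (1.89 ± 0.07, adjusted p = 6.72e-15, limma), which does not lie among the 4 nearest genes on either side.

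The genes whose log2 signals followed each Mycn probe set most closely were named over all groups. Over the 20 arrays and 28828 probe sets compared, 1425923_at was closest to Ifi35 (Pearson r = 0.991), Tmtc4 (0.990), Tgfbr2 (0.987), Parm1 (0.987) and Lgals3bp (0.984). Probe set 1417155_at was closest to Hs6st2 (0.934), Cdkn1a (0.921), Hectd2 (0.908), Srgap2 (0.901) and Fam118a (0.889), and 1425922_a_at to Serhl (0.870), Gjb2 (0.824), Ubtd1 (0.822), Flvcr2 (0.819) and Tnks1bp1 (0.817). These are descriptions over arrays that share their groups. Over the 18 arrays other than postnatal control arrays 4 and 5, r was 0.985 to 0.992 for the 5 genes named for 1425923_at, 0.815 to 0.922 for those of 1417155_at and 0.794 to 0.850 for those of 1425922_a_at.

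Across the network, embryonic transduced cells had 4 of 27 probe sets called higher than control and 0 lower with limma (12 higher and 1 lower at an unadjusted p under 0.05, which 22.8% and 16.9% of all probe sets passed). Among all probe sets tested, 13.7% were called, 8.68% of all being higher. The 4 were 2 of Mycn and both of Mxi1. The groups did not overlap for 11 of 27, against 27.9% of all probe sets. In postnatal transformed cells 1 of 27 was called higher and 6 lower, against 7.51% and 7.65% of all, and the groups did not overlap for 7 of 27, against 26.9%. The 6 were all 3 probe sets of Mycl and all 3 of Mxd3. Without postnatal control arrays 4 and 5, 1 was higher and 5 lower, against 7.31% and 8.02% of all, and the groups did not overlap for 11 of 27, against 36.9%. In bulk RNA, fewer cells of a kind and less RNA per cell cannot be told apart.

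Set beside Mycn, the 24 probe sets of the other 9 genes had a median log2 change of 0.01 in embryonic cells, where the median over all probe sets was 0.11, and of -0.64 in postnatal cells, where it was -0.05. The 3 Mycn probe sets had medians of 1.26 and 0.62. The postnatal medians without control arrays 4 and 5 were -0.32 for the 24, 0.19 for Mycn and -0.05 over all probe sets. Responses at the 2 ages differed by at least 2-fold, postnatal minus embryonic, for 8 of 27 probe sets lower and 0 higher with limma (14 lower and 0 higher at an unadjusted p under 0.05), against 11.7% and 7.53% of all (24.1% and 16.5% at an unadjusted p). None of the 8 was of Mycn. They were both Mxi1 probe sets, 3 of Mga and 1 each of Mycl, Mxd1 and Mnt. Transduction and transformation are confounded with age in this contrast, and it shares its arrays with both responses. With postnatal control arrays 4 and 5 left out, 9 probe sets were lower, against 12.2% of all. The 9 were not the same set: those of Mycl and Mnt were no longer called, and all 3 of Mxd3 were.

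**Figure D2:**
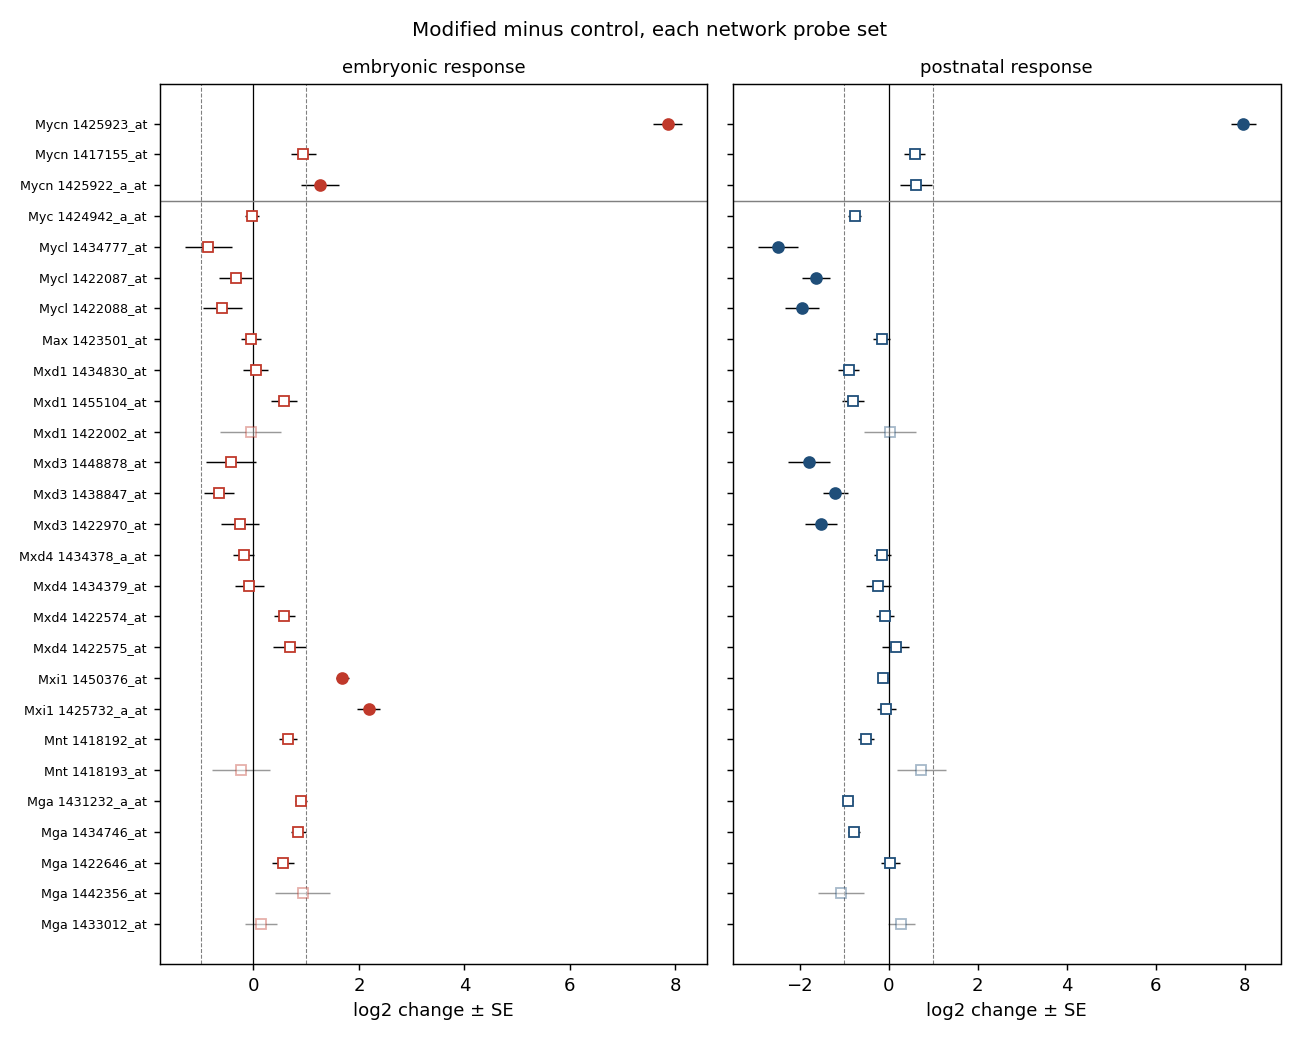
Log2 change (modified minus control, ± SE from limma, n = 5 arrays per group) of each of the 27 probe sets in embryonic cells (left) and postnatal cells (right). Filled circles are called, open squares are not, dashed lines mark 2-fold, and paler symbols mark probe sets above background on 3 or fewer arrays of a group. Mycn 1425923_at stands apart at both ages, Mxi1 is called in embryonic cells, and Mycl and Mxd3 in postnatal cells.

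Among the other activators, Myc itself, the most broadly expressed family member, did not move with Mycn 1425923_at. Its signal ranged over 8877 to 9884 in embryonic transduced and 8611 to 10613 in embryonic control arrays, overlapping ranges with a log2 change of -0.02 ± 0.14. It ranged over 7981 to 9425 in postnatal transformed and 11245 to 21985 in postnatal control arrays. All transformed arrays were below all controls, by -0.77 ± 0.14 (adjusted p = 7.43e-05, limma), which is short of 2-fold. Control arrays 4 and 5 were the highest, and without them the change was -0.45 ± 0.07 (adjusted p = 2.18e-05, limma). The probe sets closest to Myc were those of Clip3 (r = 0.963), Apbb1 (0.955), Nlgn2 (0.949), Shroom2 (0.948) and Lcorl (0.946), and r was 0.730 to 0.863 for these 5 without control arrays 4 and 5.

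Mycl, the third family member, was lower in postnatal transformed cells with all 3 probe sets. With 1434777_at the postnatal transformed arrays read 443, 401, 98.0, 493 and 638, against 1603, 702, 1313, 4706 and 5547 on the postnatal control arrays. No transformed array reached a control, transformed array 3 was below background, and control arrays 4 and 5 were the highest of the 20. The change was -2.49 ± 0.45 (adjusted p = 0.0001, limma), and -1.63 ± 0.37 without control arrays 4 and 5 (adjusted p = 0.00106, limma). With 1422087_at the postnatal transformed arrays read 263, 348, 309, 433 and 390.4, against 630.2, 574, 849, 2238 and 2392 on the postnatal control arrays, again with no overlap. With 1422088_at they read 258, 451, 277, 328 and 211, against 849, 405, 772, 2810.5 and 3091, where transformed array 2 passed control array 2. These probe sets fell by 1.64 ± 0.32 (adjusted p = 0.000201, limma) and 1.95 ± 0.38 (adjusted p = 0.000208, limma) on the log2 scale, and by 0.94 and 1.08 without control arrays 4 and 5, so that 1422087_at was no longer called.

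In embryonic cells Mycl was not called with any probe set. With 1434777_at it read 1436, 1229, 1052, 1397 and 1001 on the transduced arrays, against 2049, 2609, 2350.2, 2543 and 1622 on the control arrays. With 1422087_at the embryonic transduced arrays read 714, 759, 1033, 1318 and 957, against 998, 1318, 1397, 1273 and 998 on the embryonic control arrays. With 1422088_at they read 1033, 785, 746, 751 and 851, against 1303, 1192, 1389, 1108 and 1282. The transduced arrays lay below all controls with 1434777_at and 1422088_at and overlapped them with 1422087_at. Log2 changes were -0.86 ± 0.45, -0.34 ± 0.32 and -0.59 ± 0.38 for 1434777_at, 1422087_at and 1422088_at, with adjusted p = 0.167, 0.478 and 0.27 (limma). The test of the difference between ages passed for 1422087_at alone (-1.30 ± 0.45, adjusted p = 0.0269, limma), and not without postnatal control arrays 4 and 5 (-0.60, adjusted p = 0.122, limma). It was also lost without embryonic transduced array 4 (-1.18), postnatal control array 4 (-1.05) or 5 (-1.03), or postnatal transformed array 1 (-1.21), and under quantile normalization (-1.06, adjusted p = 0.0716, limma). The other 2 probe sets, 1434777_at and 1422088_at, gave -1.63 ± 0.64 (adjusted p = 0.0527, limma) and -1.36 ± 0.53 (adjusted p = 0.0533, limma). Without postnatal control arrays 4 and 5 they gave -0.77 (adjusted p = 0.254, limma) and -0.49 (adjusted p = 0.264, limma). Closest to Mycl 1434777_at over the 20 arrays were Narf (r = 0.925), Tcf7l2 (0.916), Kdm5c (0.910), Ap3m1 (0.908) and Tshz1 (0.907).

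Max, the shared dimer partner, was not called in any comparison. Its signal was 1368 to 3057 in embryonic transduced arrays and 1798 to 2212 in embryonic control arrays, and 1791 to 2989 in postnatal transformed and 1867 to 3687 in postnatal control arrays. The ranges overlapped at both ages, with log2 changes of -0.05 ± 0.19 and -0.16 ± 0.19.

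Among the antagonists, Mxi1 was the gene besides Mycn that was called higher in embryonic transduced cells. With 1450376_at the embryonic transduced arrays read 16056, 17299.6, 15133, 15683 and 17675, against 5217, 5172, 5887, 4546 and 4630.3 on the embryonic control arrays. The change was 1.69 ± 0.12 (adjusted p = 1.39e-10, limma), with the lowest transduced array far above the highest control. With 1425732_a_at the embryonic transduced arrays read 6369, 7402, 7768, 7613 and 6878, against 1177, 1467, 2017, 1946 and 1413 on the embryonic control arrays, a change of 2.18 ± 0.21 (adjusted p = 1.74e-08, limma).

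In postnatal cells Mxi1 did not follow. With 1450376_at the postnatal transformed arrays read 7694, 9186, 8805, 9292 and 8939, against 8957, 7523, 7738, 13214 and 11858 on the postnatal control arrays. With 1425732_a_at the postnatal transformed arrays read 4103, 3858, 3207, 3336 and 3303, against 3035, 2105, 3095, 5591 and 6147 on the postnatal control arrays. The groups overlapped with both probe sets, control arrays 4 and 5 being the highest, and the changes were -0.13 ± 0.12 and -0.06 ± 0.21 (0.12 and 0.39 without those arrays). The responses differed between ages by -1.82 ± 0.17 (adjusted p = 1.53e-08, limma) and -2.24 ± 0.30 (adjusted p = 2.37e-06, limma). In order of level, embryonic transduced arrays were above both postnatal groups, which overlapped, and embryonic control arrays were below them, with either probe set.

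Mxd3, the family member found in S phase cells, was lower in postnatal transformed cells with all 3 probe sets. With 1448878_at the postnatal transformed arrays read 487, 999, 902, 805 and 735, against 5218, 6437, 6958, 844 and 689.7 on the postnatal control arrays. Control arrays 1 to 3 were above every transformed array, while control arrays 4 and 5 lay within the transformed range. The change was -1.79 ± 0.47 (adjusted p = 0.00412, limma) over all arrays and -2.98 ± 0.19 without control arrays 4 and 5 (adjusted p = 5.82e-12, limma). With 1438847_at the postnatal transformed arrays read 1193, 1040.2, 757, 804 and 871, against 3350, 3346, 3617, 1295 and 833 on the postnatal control arrays. With 1422970_at they read 332, 291, 505, 390.5 and 486, against 2041, 2345, 2197, 494 and 389.6. Control arrays 4 and 5 were again the lowest of their group, the changes were -1.20 ± 0.29 (adjusted p = 0.0017, limma) and -1.52 ± 0.36 (adjusted p = 0.00178, limma), and they became -1.88 and -2.43 without those arrays. These are the arrays on which the cell cycle genes were low. Of 11 such genes measured, 9 were called lower in postnatal transformed cells (median log2 change -1.45), against 6.27% of all genes. Without control arrays 4 and 5, 11 were called lower (median -2.54), against 7.16% of all genes. The part of cycling in the Mxd3 change was not tested.

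In embryonic cells, Mxd3 1448878_at read 4733, 3729.8, 4644, 3956 and 2775 on the transduced arrays, against 5568, 4243, 4958, 6435 and 5239 on the control arrays. With 1438847_at the embryonic transduced arrays read 1833, 2062, 1676, 2239.6 and 2341, against 3051, 2844, 3381, 3168 and 3412 on the embryonic control arrays. With 1422970_at they read 1906, 1653, 1818, 1756 and 1837, against 1932, 2043, 2463, 1995 and 2299. The changes of -0.43 ± 0.47, -0.65 ± 0.29 and -0.25 ± 0.36 were not called, although the groups did not overlap with 1438847_at and 1422970_at. The responses of the 2 ages differed by -1.36 ± 0.67, -0.55 ± 0.40 and -1.27 ± 0.52, none called. Without postnatal control arrays 4 and 5 all 3 differences were called, at -2.56, -1.24 and -2.18.

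**Figure D3:**
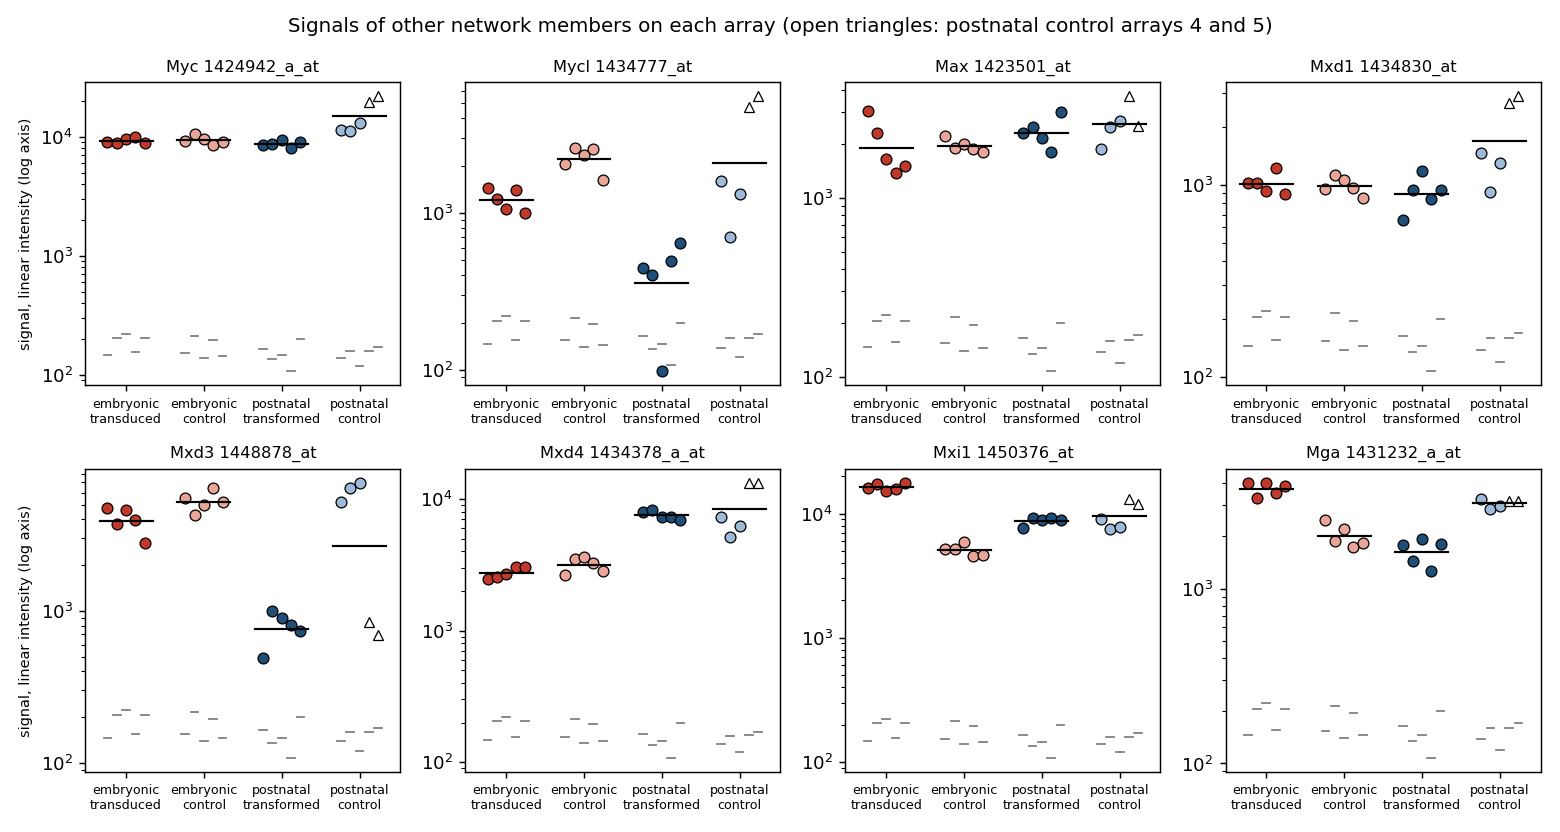
Signal of 8 network genes, 1 probe set each, on every array (linear intensity on a log axis), by group, with each array's background as a grey dash and the mean on the log2 scale as a black line. Open triangles are postnatal control arrays 4 and 5, which are the highest of their group for Myc, Mycl, Mxd1, Mxd4 and Mxi1 and the lowest for Mxd3.

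Mxd1, a member associated with differentiating cells, was lower in postnatal transformed cells by less than 2-fold with both probe sets that were above background throughout. With 1434830_at it ranged over 654 to 1173 in postnatal transformed and 916 to 2884 in postnatal control arrays (-0.90 ± 0.23, adjusted p = 0.00361, limma), and with 1455104_at over 341 to 529 and 476 to 1163 (-0.81 ± 0.24, adjusted p = 0.0106, limma). Without control arrays 4 and 5 these were -0.42 and -0.47 and did not pass (adjusted p = 0.0803 and 0.162, limma). In embryonic cells the changes were 0.04 ± 0.23 and 0.58 ± 0.24. The difference between ages was called for 1455104_at (-1.38 ± 0.34, adjusted p = 0.00256, limma). The third probe set, 1422002_at, was above background on 2 embryonic transduced arrays and on 3 arrays of each other group, and gave no call.

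Mxd4 was not called in either response with any of its 4 probe sets. The brightest, 1434378_a_at, ranged over 2477 to 3055 in embryonic transduced and 2644 to 3617 in embryonic control arrays, and over 6890.4 to 8247 in postnatal transformed and 5115 to 13279.7 in postnatal control arrays. Its range was wide in postnatal controls, where arrays 4 and 5 were the highest, and the 4 probe sets gave changes between -0.19 and 0.68 in embryonic cells and between -0.24 and 0.15 in postnatal cells. Without control arrays 4 and 5 the sign turned for 4 of 4 in postnatal cells: 1434378_a_at gave 0.30 ± 0.11 (adjusted p = 0.0451, limma, against -0.15 with all arrays), 1434379_at gave 0.20, 1422574_at 0.13 and 1422575_at -0.07, none of them 2-fold.

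Mnt, the broadly expressed antagonist of Myc, was higher in embryonic transduced cells by less than 2-fold, and was lower in postnatal transformed cells only with control arrays 4 and 5 included. With 1418192_at it ranged over 2518 to 3199 in embryonic transduced and 1361 to 2672 in embryonic control arrays (0.65 ± 0.18, adjusted p = 0.00612, limma). It ranged over 1752 to 2451 in postnatal transformed and 2137 to 4613 in postnatal control arrays (-0.52 ± 0.18, adjusted p = 0.0265, limma), and without control arrays 4 and 5 the change was -0.22 ± 0.16 and did not pass (adjusted p = 0.327, limma). The difference of -1.17 ± 0.25 was called (adjusted p = 0.000756, limma), and was -0.88, short of 2-fold, without postnatal control arrays 4 and 5. The other probe set, 1418193_at, was above background on 0 embryonic transduced and 0 postnatal control arrays, 1 embryonic control and 3 postnatal transformed arrays. Between modified cells it was not called in the main fit. It was called higher in postnatal transformed cells under quantile normalization (1.36) and without postnatal transformed array 4 (1.44).

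Mga was higher in embryonic transduced and lower in postnatal transformed cells with its 2 brightest probe sets, with no overlap between groups. With 1431232_a_at it ranged over 3311 to 4031 in embryonic transduced and 1735 to 2485 in embryonic control arrays, a difference of 0.89 ± 0.12 (adjusted p = 1.50e-06, limma). It ranged over 1257 to 1933 in postnatal transformed and 2864 to 3244 in postnatal control arrays, a difference of -0.91 ± 0.12 (adjusted p = 8.71e-07, limma). With 1434746_at the changes were 0.85 ± 0.14 in embryonic and -0.78 ± 0.14 in postnatal cells. None of these reached 2-fold, but the difference between the ages did, at -1.81 ± 0.16 (adjusted p = 7.77e-09, limma) and -1.63 ± 0.20 (adjusted p = 9.24e-07, limma), and at -1.78 and -1.55 without postnatal control arrays 4 and 5.

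The remaining Mga probe sets were dimmer. With 1422646_at the changes were 0.56 ± 0.21 in embryonic and 0.04 ± 0.21 in postnatal cells. For 1442356_at, above background on 3 to 5 arrays of a group, the difference between ages was -2.01 ± 0.74 (adjusted p = 0.0391, limma), a call that was lost without any 1 of 9 arrays (values from -1.43 to -2.03), under quantile normalization (-1.79, adjusted p = 0.0618, limma) and with centring on the 75th percentile (-1.90, adjusted p = 0.0537, limma). The fifth, 1433012_at, was below background on all 20 arrays.

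Between ages, controls had 4 of 27 probe sets called higher in postnatal than in embryonic cells and 0 lower with limma (11 higher and 1 lower at an unadjusted p under 0.05), against 4.56% and 4.27% of all probe sets (17.4% and 16.1% at an unadjusted p). The groups did not overlap for 7 of 27, against 17.1% of all. The 4 were 3 of Mxd4 and 1 of Mxi1. With postnatal control arrays 4 and 5 left out, 2 were called higher, against 3.43% of all. These comparisons share their control arrays with the responses above. Short of 2-fold, Mycn 1417155_at differed by 0.75 ± 0.11 without arrays 4 and 5 (adjusted p = 3.22e-05, limma), against 0.22 ± 0.23 with them. Mycl 1434777_at, 1422087_at and 1422088_at differed by -0.94, -0.80 and -0.94 without them (adjusted p = 0.0857, 0.0119 and 0.00662, limma). With all arrays the Mycl differences were -0.08, -0.10 and -0.07. Mxd3 1448878_at had the lowest value of the network with all arrays, -0.96, not called. It was called lower without postnatal control array 2 (-1.28) or 3 (-1.30). Mxd3 1422970_at was called lower without postnatal control array 1 (-1.08), 2 (-1.13) or 3 (-1.11). Without postnatal control arrays 4 and 5, Mxd3 1448878_at, 1438847_at and 1422970_at differed by 0.23, 0.12 and 0.04, none called.

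Mxd4 1434378_a_at was higher in postnatal than embryonic controls by 1.40 ± 0.19 (adjusted p = 7.21e-06, limma), 1434379_at by 1.65 ± 0.28 and 1422574_at by 1.30 ± 0.20, and the groups did not overlap with any of them. Probe set 1422575_at, the dimmest, differed by -0.08 ± 0.31. Without postnatal control arrays 4 and 5 the first 3 were 0.96, 1.21 and 1.08, the first of them then short of 2-fold. Mxi1 1425732_a_at was higher by 1.22 ± 0.21 (adjusted p = 0.000125, limma), and by 0.78 without them.

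In modified cells 2 of 27 probe sets were called higher and 10 lower in postnatal transformed than in embryonic transduced cells, against 9.92% and 14.9% of all, and the groups did not overlap for 17 of 27, against 38.8%. The 2 were Mxd4 1434378_a_at (1.45 ± 0.19, adjusted p = 1.02e-06, limma) and 1434379_at (1.48 ± 0.28). Lower were all 3 probe sets of Mxd3, at -2.33, -1.12 and -2.15, and all 3 of Mycl, at -1.72, -1.40 and -1.44. Mga was lower with 1431232_a_at (-1.19 ± 0.12), 1434746_at (-1.19 ± 0.14) and 1442356_at (-1.59 ± 0.52), the last not called without postnatal transformed array 5 (-1.20). Mxi1 1425732_a_at was lower (-1.02 ± 0.21), a call that was lost without any 1 of 5 arrays (-0.98 without postnatal transformed array 3, the smallest of the 5) and with centring on the 75th percentile (-0.95).

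**Figure D4:**
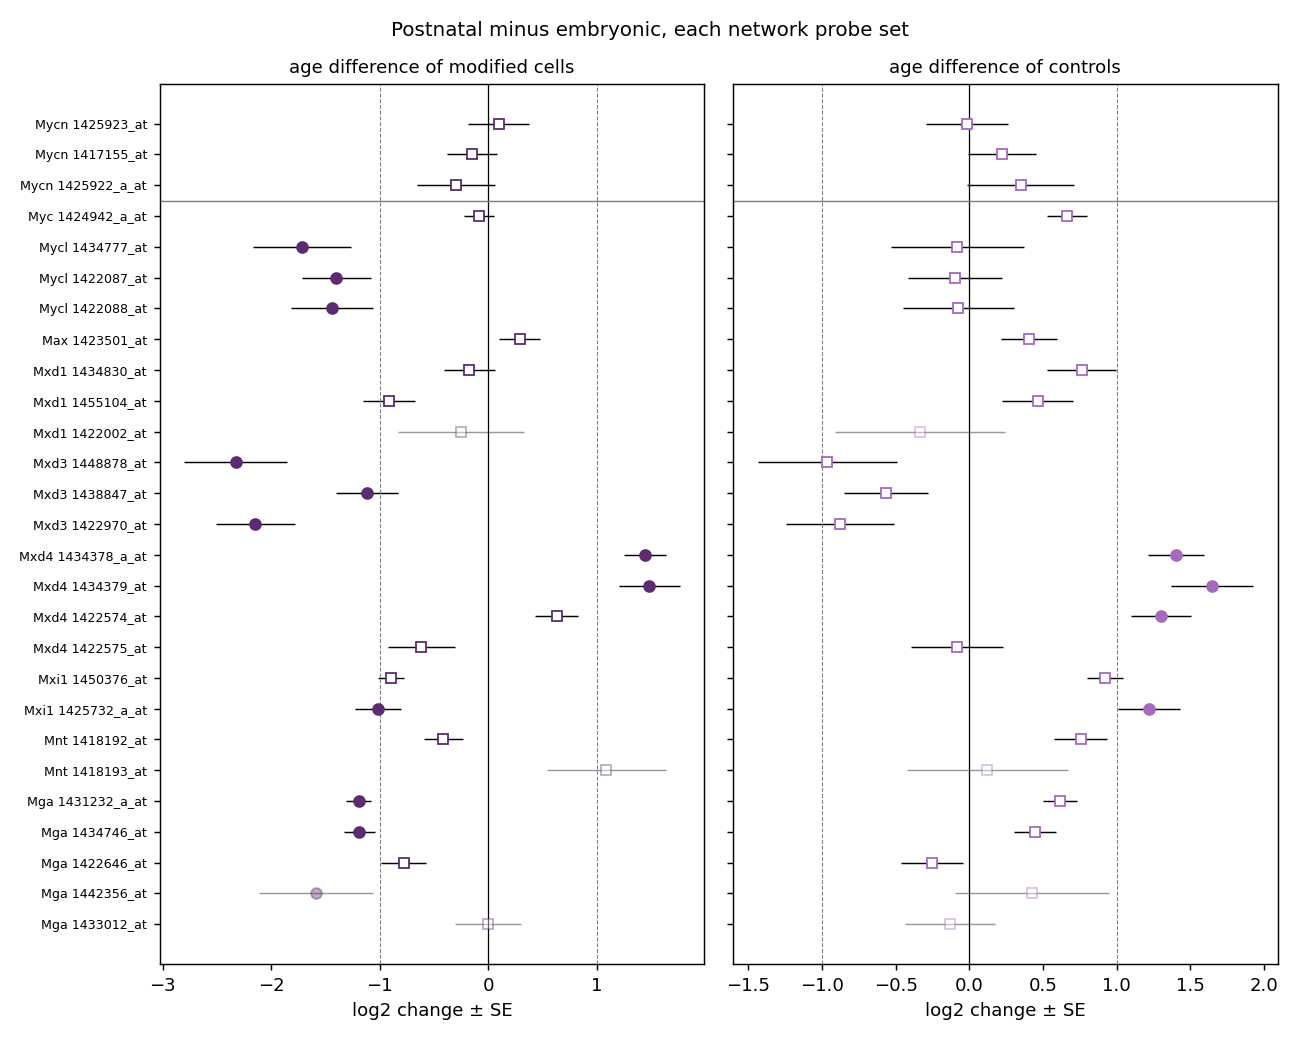
Log2 difference (postnatal minus embryonic, ± SE from limma, n = 5 arrays per group) of each of the 27 probe sets in modified cells (left) and in controls (right). Filled circles are called, open squares are not, dashed lines mark 2-fold, and paler symbols mark probe sets above background on 3 or fewer arrays of a group. 2 Mxd4 probe sets are called higher at the postnatal age in both panels, all probe sets of Mycl and Mxd3 and 3 of Mga are called lower in modified cells, and Mycn is called in neither.

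The wider pathway was read from 1 probe set per gene, the brightest, over 18193 genes, of which 8.46% were called higher and 5.67% lower in embryonic cells and 9.44% higher and 6.27% lower in postnatal cells. Medians over all genes were 0.08 and -0.00. At an unadjusted p under 0.05, 24.7% were higher and 20.4% lower in embryonic cells and 23.2% higher and 24.5% lower in postnatal cells, against which the counts at that limit are to be read. When postnatal control arrays 4 and 5 were left out, 9.09% were called higher and 7.16% lower in postnatal cells. Of 7 further network genes, 0 were called in embryonic cells (3 higher and 0 lower at an unadjusted p under 0.05, limma) and 1 in postnatal cells, Mycbp2, which encodes a ubiquitin ligase that binds Myc (-1.44 ± 0.07). Of 6 corepressor genes measured, which serve the Mxd proteins, 0 were called at either age with limma (2 higher and 1 lower in embryonic cells, and 1 higher and 4 lower in postnatal cells, at an unadjusted p under 0.05). With postnatal control arrays 4 and 5 left out, 1 of the 6 was called lower, the Sin3 complex gene Sap30 (-1.09 ± 0.07, against -0.94 with all arrays).

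Myc recruits coactivators that acetylate and remodel chromatin, and its own protein is removed by ubiquitin ligases. Of 14 coactivator and partner genes, 0 were called in embryonic cells with limma (7 higher and 3 lower at an unadjusted p under 0.05, median 0.17). In postnatal cells 1 was called lower, the chromatin remodeller gene Ep400 (-1.06 ± 0.11, adjusted p = 4.87e-08, limma), with a median of -0.47 and 14 of 14 lower at an unadjusted p under 0.05. Ep400 was just short of 2-fold without postnatal control arrays 4 and 5 (-0.98 ± 0.12) and Trrap, a scaffold of acetyltransferase complexes, was called instead (-1.03 ± 0.09, against -0.99 with all arrays). Of 12 genes of Myc protein turnover, 0 were called in embryonic cells (5 higher and 2 lower at an unadjusted p under 0.05, limma). In postnatal cells 2 were called lower, the ubiquitin ligase gene Skp2 (-1.64 ± 0.20) and the mitotic kinase gene Aurka (-1.30 ± 0.43, adjusted p = 0.0205, limma), at -2.14 and -2.45 without those arrays.

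The genes known to be activated by Myc serve the nucleolus, nucleotide and amino acid metabolism and the cell cycle. In embryonic cells 0 of the 20 were called higher and 1 lower with limma (5 higher and 10 lower at an unadjusted p under 0.05), the cyclin gene Ccnd2 (-1.97 ± 0.16, adjusted p = 6.91e-10, limma), and the median was -0.18. In postnatal cells 3 were called higher and 4 lower, with a median of -0.44. At an unadjusted p under 0.05 (limma) 4 of the 20 were higher and 14 lower, against 23.2% and 24.5% of all genes. Called lower with the smallest p were the nucleolar genes Gnl3 (-1.51 ± 0.06) and Nolc1 (-1.17 ± 0.07) and the pyrimidine synthesis gene Cad (-1.66 ± 0.10), and the 3 called higher, named after their values were seen, were the amino acid transporter gene Slc7a5 (2.80 ± 0.22), Ccnd2 (1.69 ± 0.16) and the serine pathway gene Shmt2 (1.33 ± 0.13). The 7 stayed called without postnatal control arrays 4 and 5 and the nucleolar gene Nop56 joined those lower (-1.06 ± 0.08, against -0.99 with all arrays).

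Of 9 genes known to be repressed by Myc, 4 were called higher and 0 lower in embryonic cells with limma (6 higher and 1 lower at an unadjusted p under 0.05), with a median of 0.73. Those with the smallest p were Ndrg1, Cdkn2b and Cebpa, which encodes a differentiation factor (1.32 ± 0.18). Ndrg1, a stress and differentiation gene, averaged 30457 in embryonic transduced and 204 in embryonic control arrays, above background on 3 of the 5 controls, so its change of 7.46 ± 0.45 is not exact. The cell cycle inhibitor gene Cdkn2b differed by 1.68 ± 0.18 in embryonic and 4.56 ± 0.18 in postnatal cells. In postnatal cells 4 were higher and 1 lower, with a median of 0.997. The DNA damage gene Gadd45a was higher by 2.01 ± 0.21 and Ndrg2, a relative of Ndrg1, was lower (-1.45 ± 0.15). Without postnatal control arrays 4 and 5, 3 were called higher and 1 lower, and the cell cycle inhibitor gene Cdkn1a was no longer called (0.90 ± 0.14, against 1.96 with all arrays).

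Markers of other cells were checked beside these results. Their counts here and below are to be read against the shares of all genes called. These were 8.46% higher and 5.67% lower in embryonic cells, and 9.44% higher and 6.27% lower in postnatal cells. Without postnatal control arrays 4 and 5 the postnatal shares were 9.09% and 7.16%. The summed signal of 5 astrocyte markers was 1691 to 2664 in embryonic transduced, 4583 to 5095 in embryonic control, 5005 to 5415 in postnatal transformed and 4361 to 39440 in postnatal control arrays. In embryonic cells 2 of the 5 were called lower, and in postnatal cells 3, among them Gfap (-3.01 ± 0.78), which was at background on all embryonic controls. That of 4 oligodendrocyte markers was 798 to 1337, 745 to 1334, 1039.7 to 1638 and 1785 to 8518 in the same groups, with Mog above background on no array. In embryonic cells 0 of the 4 were called with limma (0 at an unadjusted p under 0.05), and in postnatal cells 2 were lower, Mbp and Mag, neither of them without postnatal control arrays 4 and 5.

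The summed signal of 5 neuron markers was 3276 to 4076 in embryonic transduced, 5674 to 6143 in embryonic control, 6457 to 6806 in postnatal transformed and 6811 to 7587 in postnatal control arrays. In embryonic cells 3 were called lower and 1 higher, the GABA synthesis gene Gad1 (3.01 ± 0.20), and in postnatal cells Rbfox3 and Snap25 were lower. That of 5 microglia and macrophage markers was 1814 to 2909, 1124 to 1485, 1241 to 1655.5 and 971 to 1371 in the same groups, with Aif1 above background on no array and 1 of 5 called, Cd68 of lysosomes, which was higher in embryonic (1.31 ± 0.21) and postnatal (1.23 ± 0.21) cells. That of 5 endothelial markers was 801 to 1632, 498 to 866, 474 to 936 and 121 to 750.1, with Pecam1 above background on no array. The receptor gene Kdr was called higher in embryonic cells (1.58 ± 0.48, adjusted p = 0.0132, limma), and in postnatal cells 0 were called with limma (2 higher at an unadjusted p under 0.05, median 1.03), or Kdr and Tek without postnatal control arrays 4 and 5. Cdh5 and Tek were above background on no postnatal control array, and 0 of the 5 markers on all of them, so the postnatal endothelial changes are not exact. That of 5 fibroblast markers was 821 to 1518, 1017 to 1842, 404 to 611 and 272 to 1020.3, with 0 called at either age (0 at an unadjusted p under 0.05, limma).

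On postnatal control arrays 1 to 5 the mean log2 signal was 12.13, 11.03, 9.03, 10.18 and 10.31 for the astrocyte markers and 7.90, 8.43, 7.51, 8.41 and 8.82 for the oligodendrocyte markers. For the astrocyte markers arrays 4 and 5, where Mycl, Mxd1 and Mxd4 were highest, lay inside the range of the others, and for the oligodendrocyte markers array 5 was the highest. The part of other cells in these results was not tested.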

How the data were processed

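RNA of 20 mouse glial progenitor samples was measured on single-colour arrays, 5 per group as the labels group them. The deposited values are signal intensities on a linear scale, 1 per probe set, as read from the values themselves; the sources used here do not give the software, background correction or normalization. Each array's mean after trimming 2% at each end was 2500.01 to 2500.02, so arrays stand on 1 scale and changes are relative to the array. Of 45101 probe sets, 64 controls were removed and 45037 tested. Genes were named from the platform annotation: 34945 probe sets had 1 symbol, 932 several and 9160 none, covering 18193 genes with a probe set of their own. Levels of different probe sets are not comparable, so differences between Mycn probe sets on an array serve only to compare their changes.

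Signals were taken as log2(signal + 16) and fitted with limma 3.58.1 in R 4.3.3 (lmFit and eBayes with an intensity trend, 4 group means, two-sided, Benjamini-Hochberg). Differences between Mycn probe sets were tested with scipy 1.17.1 by exact permutation. The number of arrays limits the precision. The fit was tested on simulated data. Members, gene lists and alternatives were chosen with earlier results of these data known. Probe sets were given array by array where they were of Mycn or were called in a response. Up to 3 called genes per list with the smallest p were named, and for Mycn, Myc and Mycl the 5 genes with the highest Pearson r, from probe sets above background on at least 5 arrays. No 2 arrays held identical values (0 of 190 pairs). Arrays of an age that share a number correlated in their deviations from the group means between -0.04 and 0.05. No pairing by number was seen in this way, but it cannot show that the samples are unpaired, and the labels do not say. Alternatives were an offset of 1 or 64, quantile normalization, centring on the 75th percentile, removal of dim probe sets, 1 probe set per gene, adjusted p alone, no trend, only the groups compared, a replicate block, and leaving out each array or postnatal control arrays 4 and 5. Some genes are not analysed here.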

Additional observations from a re-analysis of the deposited data

Results flagged for a closer look

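The responses at the 2 ages differed, as a tested contrast of postnatal minus embryonic on the log2 scale with limma, for 8 probe sets of the network. All were lower in the postnatal contrast: Mxi1 1425732_a_at by -2.24 and 1450376_at by -1.82, Mga 1442356_at by -2.01, 1431232_a_at by -1.81 and 1434746_at by -1.63, Mxd1 1455104_at by -1.38, Mycl 1422087_at by -1.30 and Mnt 1418192_at by -1.17. Transduction and transformation are confounded with age in this contrast and cannot be told apart.

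In 5 of the 94 groups of arrays examined, 1 array stood apart from the other 4, with a gap to its nearest neighbour, as a share of the group's range, above Dixon's critical value for 5 values. Chance gives about 1 in 20 such groups. Mycn 1425922_a_at was low on postnatal transformed array 3 (0.780) and on embryonic control array 5 (0.753). Mycl 1434777_at was low on postnatal transformed array 3 (0.742) and Mxi1 1450376_at on postnatal transformed array 1 (0.715). Mxd4 1422574_at was high on embryonic control array 3 (0.747).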

How the results depend on the processing

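Of 35 calls of single probe sets over the 5 comparisons, 26 were kept under all 31 alternatives and 9 were lost under 1 or more, and none reversed. Of 4090 values of single probe sets under alternatives, 4003 stayed on their side of the threshold, 57 passed it and 30 no longer did, while 99 values not called under either setting turned sign (12 of them without postnatal control arrays 4 and 5). With 1 probe set per gene, the called probe sets numbered 2 in the embryonic response (4 with all probe sets), 3 in the postnatal response (7), 3 in the difference of responses (8), 1 in the age difference of controls (4) and 4 in that of modified cells (12), since fewer probe sets were counted. By adjusted p alone, with no fold limit, they numbered 10, 13 and 10 in the embryonic response, the postnatal response and the age difference of controls. The share of all probe sets that pass that limit is not given here, so these counts cannot be set against it. With the 2-fold limit kept and without postnatal control arrays 4 and 5, the age difference of controls gave 2 calls (4 with all arrays). The difference of responses then gave 9 (8 with all arrays). Leaving out 1 array at a time gave 3 to 4, 7 to 8, 6 to 11, 4 to 7 (7 without postnatal control array 2) and 10 to 13 in the order above.

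The within-array differences between Mycn probe sets, leaving out 1 array, ran from 6.54 to 7.16 (1425923_at against 1417155_at), 6.11 to 7.21 (1425923_at against 1425922_a_at) and -0.48 to 0.05 (1417155_at against 1425922_a_at) in embryonic cells, and from 7.15 to 7.76, 7.21 to 7.51 and -0.25 to 0.10 in postnatal cells. Without postnatal control arrays 4 and 5 the first 2 were 7.92 and 7.78 (adjusted p = 0.0536 by exact permutation), since 5 arrays against 3 cannot reach a smaller p.

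A replicate block gave counts of 4, 7, 8, 4 and 12, and under it Mycl 1434777_at passed in the difference of responses (adjusted p = 0.00871, limma) while Mga 1442356_at did not (0.0534). With the pairs kept, the smallest p of the within-array test is 0.0625. Centring on the 75th percentile gave 4, 7, 7, 4 and 11 calls and quantile normalization 4, 7, 6, 4 and 13.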
